A study of Mus musculus with 82 samples.

Results

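The 6 genes described here, Ms4a4b, Ms4a4c, Ms4a4d, Ms4a6b, Ms4a6c and Ms4a6d, are members of the Ms4a family that lie side by side on mouse chromosome 19. They were chosen by symbol from the 19752 genes that had a probe set with a single symbol, and each was read by exactly 1 probe set. Ms4a4b was listed for its low strains, so its levels are a description with no test. The arrays compared naive CD4 T cells between the genetic backgrounds of inbred mice. The cells were sorted from spleen as CD3+CD4+CD62L+ and negative for a set of markers that includes CD8, CD11c, CD25, CD49b, Gr1 and Ter119.

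All mice were untreated as far as the labels say, male and, per the labels, 6 weeks old, while the series text gives a younger age. Each array holds RNA of a pool of mice, and arrays of a strain are described as biological replicates. P-values of the F-test and of contrasts with C57BL/6J thus measure the spread between pools. Those for subspecies origin measure the spread between strain means. There were 82 arrays in 40 strain groups. C57BL/6J, from which the mouse genome assembly was made, had 5 arrays, SWR/J had 1, and the other 38 groups had 2 each. Of the strains named below, JF1/Ms, MSM/Ms, PWD/PHJ and CAST/EiJ come from subspecies outside Mus musculus domesticus, and WSB/EiJ comes from wild domesticus mice. KK.Cg-Ay/J is bred to carry the Ay allele of the agouti gene and BTBR T+ tf/J the tufted allele tf. For 2 groups the title and the background label disagree: CBA/CaJ is given for the arrays with C57BR in their title, and DBA/1LacJ for those with DBA2. They were kept apart as C57BR-titled and DBA2-titled. The series text names granulocytes in 1 sentence, where the labels of every array name CD4 T cells.

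Ms4a genes encode small proteins that cross the membrane several times. The best known is Ms4a1, which encodes CD20 of B cells. Ms4a4b is made by mouse T cells, where its protein has been found with the costimulatory receptor Gitr and has been reported to restrain T cell proliferation. Ms4a6b is also a T cell gene of the mouse, Ms4a4c is known among the genes that interferon induces, and Ms4a6c and Ms4a6d are best known from monocytes and macrophages. No role is given here for Ms4a4d.

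Windows just before transcription starts are shown for the gene pairs that share the longest runs of sequence, to set beside the levels of those pairs. RefSeq promoter sequences on GRCm38.p6, read from C57BL/6J, matched 5 of the 6 genes. The 250 bases before the start of Ms4a4b (chr19:11443308-11443557, + strand) and of Ms4a4c (chr19:11407411-11407660, + strand) follow, with their longest shared run in capitals. Those of Ms4a6b (chr19:11518309-11518558, + strand) and of Ms4a6c (chr19:11469118-11469367, + strand) come next, marked the same way.
Ms4a4b: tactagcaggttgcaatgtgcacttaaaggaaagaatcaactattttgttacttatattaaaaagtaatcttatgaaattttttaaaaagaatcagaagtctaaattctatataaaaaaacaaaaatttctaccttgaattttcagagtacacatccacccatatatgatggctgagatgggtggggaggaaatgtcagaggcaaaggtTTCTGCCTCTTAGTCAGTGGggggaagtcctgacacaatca
Ms4a4c: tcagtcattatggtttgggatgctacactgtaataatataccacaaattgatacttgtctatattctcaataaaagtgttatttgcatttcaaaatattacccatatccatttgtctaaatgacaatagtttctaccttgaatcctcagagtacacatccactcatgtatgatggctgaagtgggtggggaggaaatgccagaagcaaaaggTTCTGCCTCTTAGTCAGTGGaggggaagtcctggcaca
Ms4a6b: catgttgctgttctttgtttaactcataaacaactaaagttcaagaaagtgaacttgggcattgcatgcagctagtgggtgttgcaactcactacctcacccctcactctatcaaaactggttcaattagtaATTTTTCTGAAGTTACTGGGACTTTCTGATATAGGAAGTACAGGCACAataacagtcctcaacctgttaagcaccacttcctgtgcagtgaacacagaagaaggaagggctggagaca
Ms4a6c: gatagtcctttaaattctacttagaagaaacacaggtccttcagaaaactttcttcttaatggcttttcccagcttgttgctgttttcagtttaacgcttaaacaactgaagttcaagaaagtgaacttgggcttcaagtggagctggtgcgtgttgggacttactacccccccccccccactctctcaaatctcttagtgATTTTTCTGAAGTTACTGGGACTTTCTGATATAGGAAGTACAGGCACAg

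Ms4a4b and Ms4a4c were identical in 70.8 percent of 271 aligned columns, and their longest shared run of 20 bases ended 22 bases before the start in Ms4a4b and 19 bases before it in Ms4a4c. Ms4a6b and Ms4a6c shared a run of 48 bases, which ended 71 bases before the start in Ms4a6b and 2 bases before it in Ms4a6c. Aligned end to end, those windows were identical in 47.4 percent of 327 columns. The other pairs reached 47.1 to 53.0 percent, with shared runs of 6 to 9 bases. A search of both strands found the RUNX motif TGTGGT once in Ms4a4c (14.0 percent of 32851 promoters hold it) and the TCF/LEF motif TCAAAG once in Ms4a4d (13.8 percent). The interferon-response (ISRE) motif, GAAA and GAAA with any 2 bases between, is held by 2.98 percent of promoters and had no match in the 5 windows. The same was true of the ETS-IRF motif, GGAA and GAAA with any 2 bases between (2.3 percent), the GATA motif AGATAA (9.99 percent) and the E-box CAGCTG (13.0 percent).

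Values are RMA intensities, a background-corrected and normalized brightness on a linear scale, with array medians of 102 to 142 and a median of all values of 113. The arrays carried T cell markers: the CD4 T cell list mean lay between 11.2 and 11.7 (log2) on every array, over 8 of 9 listed genes. Strain medians lay below the median of all values for 8 of 9 B cell markers, 10 of 10 myeloid markers and 8 of 8 neutrophil markers. The same held for only 1 of 2 CD8 T cell markers (Cd8a) and 0 of 5 regulatory T cell markers, although the sort excluded CD8 and CD25. Replicate 2 of PL/J had the highest list means for B cells (8.79 against a median array of 5.63), myeloid cells (7.05 against 5.82) and neutrophils (7.55 against 5.70), and replicate 2 of A/J was second for B cells (7.35). In pooled cells, fewer cells of a type and less RNA per cell cannot be told apart.

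The 5 genes other than Ms4a4b all passed limma's moderated F-test for a difference between strains (adjusted p under 0.05 over all probe sets), where 47.6 percent of the 24922 probe sets did. The share was 72.6 percent among the brighter probe sets, those above the median of all values in at least 1 strain. Adjusted p was 2.03e-22 for Ms4a4c, 5.00e-34 for Ms4a6c, 5.94e-08 for Ms4a6b, 8.44e-07 for Ms4a4d and 3.20e-13 for Ms4a6d. The size of the spread differed widely between the genes. Its measure, the SD of strain means on the log2 scale, was 1.34 for Ms4a4b, 1.12 for Ms4a6c, 0.91 for Ms4a4c, 0.55 for Ms4a6d, 0.24 for Ms4a4d and 0.19 for Ms4a6b. The median over the 5 genes tested was 0.55, against 0.14 over all probe sets. Of the 12 other Ms4a genes measured, 1 passed the F-test, and their median SD was 0.11. Apart from Ms4a15 (143), their strain medians lay below the median of all values, down to 9.04 for Ms4a19. Their small spread therefore says little about how steady their expression is.

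**Figure D1:**
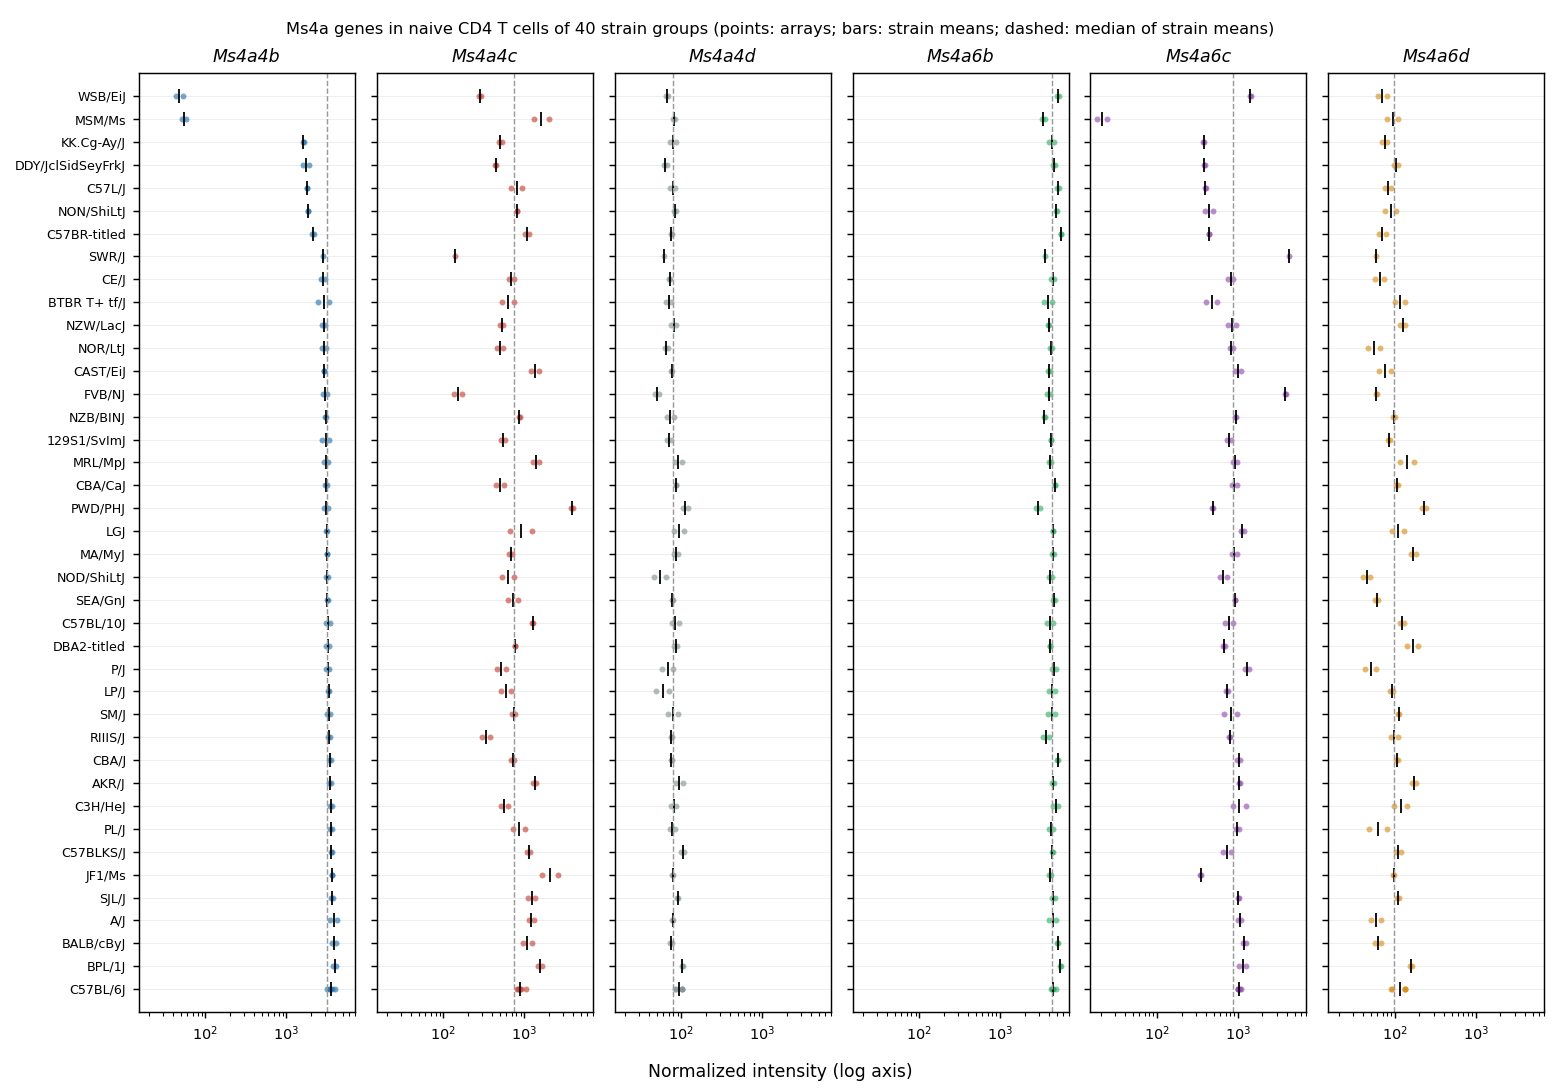
Normalized intensity (log axis) of the 6 genes on each array (points), with strain means (bars) and the median of strain means (dashed), for 40 strain groups ordered by Ms4a4b with C57BL/6J at the bottom. Ms4a4b stands at 47.4 in WSB/EiJ and 54.1 in MSM/Ms, far left of every other strain, while Ms4a6b stays between 2945 and 5662.

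Ms4a4b strain means fell into 3 groups, called levels here, when split at gaps above 2 replicate SDs. The gene was listed for its low strains, so the split is a description. WSB/EiJ had intensities of 42.7 and 52.7 on its 2 arrays and MSM/Ms 51.5 and 56.8, against 3966, 3205, 3454, 3466 and 3695 on the 5 C57BL/6J arrays. Both strain means lay below the median of all values, so no exact fold is given for them. These were the only strains 2-fold or more below the strain median of 3149, and none lay as far above it.

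A second level held 5 strains. KK.Cg-Ay/J had 1596 and 1652, DDY/JclSidSeyFrkJ 1592 and 1916, C57L/J 1776 and 1798, NON/ShiLtJ 1841 and 1843, and the C57BR-titled arrays 2060 and 2171. Every one of these arrays lay below all 5 C57BL/6J arrays, which is a description only, as the strains were grouped by these values. The other 33 strain means ran without a break from 2809 in SWR/J to 3935 in BPL/1J, the highest. Of the 39 gaps between neighbours in the order, 2 exceeded 2 replicate SDs (the replicate SD was 0.11, log2): 4.91 between MSM/Ms and KK.Cg-Ay/J, and 0.41 between C57BR-titled and SWR/J. All other neighbours in that order differed by less than 2 replicate SDs. The 2-fold limit falls in the first gap: KK.Cg-Ay/J, at -0.96 (log2) from the strain median, lies just outside it, and the nearest strain on its other side is MSM/Ms, far beyond it at -5.86.

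Ms4a6c was low in the same 5 strains and in MSM/Ms, but not in WSB/EiJ. MSM/Ms had 18.2 and 24.1, against 999, 1004, 1050, 1083 and 995 on the C57BL/6J arrays, and its mean of 20.9 was the lowest of all strains. No array of another strain came near it: the next strain, JF1/Ms, had 338 and 351. KK.Cg-Ay/J followed with a mean of 374, DDY/JclSidSeyFrkJ with 383, C57L/J with 396, C57BR-titled with 432 and NON/ShiLtJ with 439. Of the 9 lowest strain means, up to 489 in PWD/PHJ, only those of JF1/Ms, BTBR T+ tf/J (470) and PWD/PHJ belonged to strains at 2877 or more for Ms4a4b. WSB/EiJ, at the bottom for Ms4a4b, had 1389 and 1437 for Ms4a6c, which was above all 5 C57BL/6J arrays.

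The closely named C57 strains did not share 1 pattern. C57L/J and C57BR-titled had the second level of Ms4a4b and low Ms4a6c. C57BL/10J had 3235 for Ms4a4b and 770 for Ms4a6c, and C57BLKS/J had 3585 and 722.

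FVB/NJ and SWR/J stood at the other end of Ms4a6c. FVB/NJ had 3770 and 3909 and the single SWR/J array 4316, with a gap in the order between WSB/EiJ (1413) and FVB/NJ (3839) that exceeded 2 replicate SDs. Other such gaps lay between MSM/Ms and JF1/Ms (345) and between PWD/PHJ (489) and NOD/ShiLtJ (658). Every other step between neighbours was smaller.

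**Figure D2:**
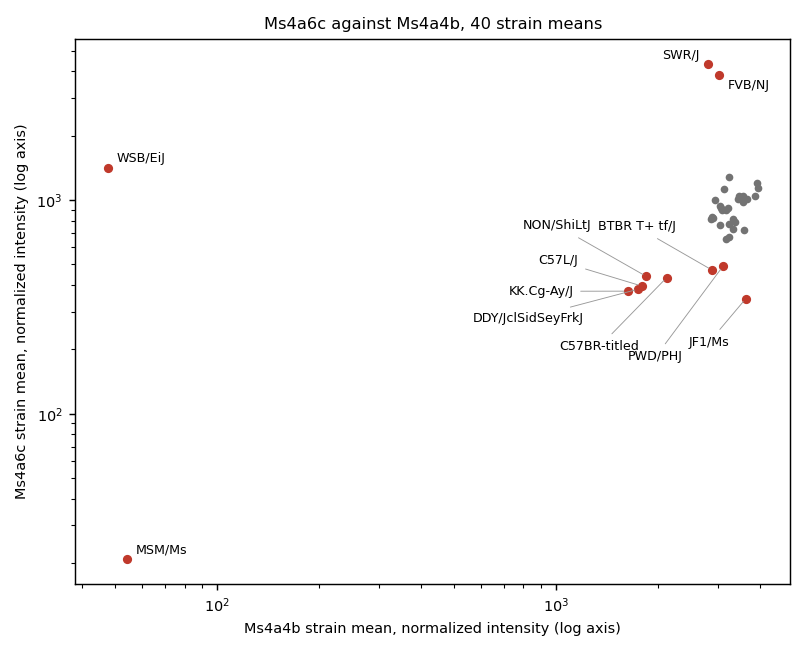
Strain means of Ms4a6c against Ms4a4b (normalized intensity, log axes), 1 point per strain group, with the strains named in the text in red. MSM/Ms is low on both axes, WSB/EiJ (47.4 for Ms4a4b, 1413 for Ms4a6c) on 1 only, and the 5 strains between 1624 and 2115 for Ms4a4b lie between 374 and 439 for Ms4a6c.

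Ms4a4c, the interferon-induced member, was lowest where Ms4a6c was highest. SWR/J had 138 and FVB/NJ 136 and 170, against 829, 887, 924, 813 and 1054 on the C57BL/6J arrays. WSB/EiJ (276 and 290) and RIIIS/J (299 and 380) were also more than 2-fold below the strain median of 754. None of these arrays overlapped the C57BL/6J arrays, but the strains were named here for being low. PWD/PHJ had the highest level, with 3724 and 3949, followed by JF1/Ms (1648 and 2579), MSM/Ms (1314 and 1997) and BPL/1J (1465 and 1639). Gaps above 2 replicate SDs (replicate SD 0.23, log2) lay only between FVB/NJ (152) and WSB/EiJ (283) and between JF1/Ms (2062) and PWD/PHJ (3835). Between those ends, strains next to each other in the order differed by less.

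**Figure D3:**
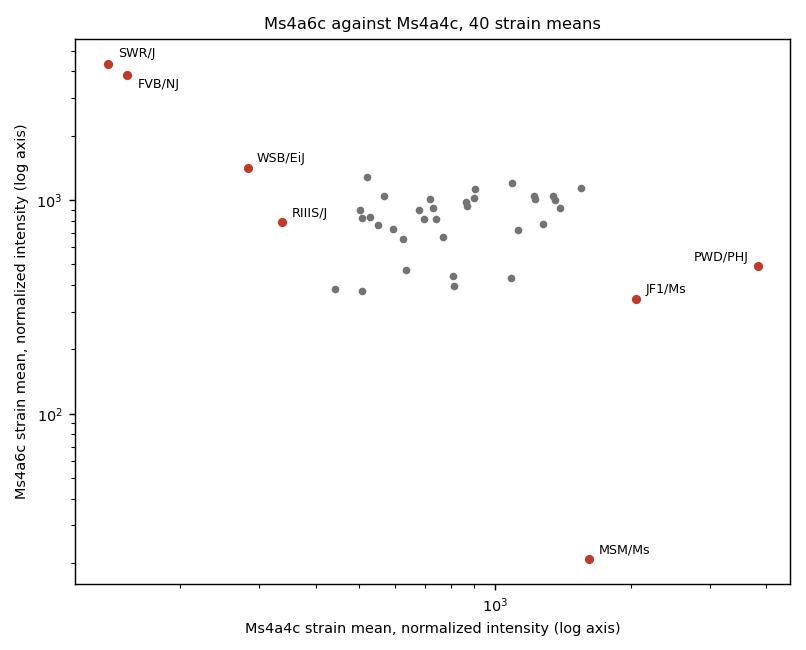
Strain means of Ms4a6c against Ms4a4c (normalized intensity, log axes), 1 point per strain group, with the strains at the ends in red. SWR/J and FVB/NJ lie at 138 and 152 for Ms4a4c and at 4316 and 3839 for Ms4a6c, while MSM/Ms lies at 1620 and 20.9.

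Ms4a6b was the steadiest of the 6. It had 2772 and 3128 in PWD/PHJ, the lowest strain, and 5619 and 5706 on the C57BR-titled arrays, the highest, against 4562, 4397, 4513, 4304 and 4904 in C57BL/6J. No strain was 2-fold from the strain median of 4377, and the whole range was 1.92-fold. All 40 of its strain means exceeded the median of all values. In WSB/EiJ, where Ms4a4b was lowest, Ms4a6b stood at 5147. PWD/PHJ and MSM/Ms (3412) formed the 1 gap in the order above 2 replicate SDs.

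Ms4a4d and Ms4a6d were dim. Ms4a4d stayed below the median of all values in every strain, between 49.7 in FVB/NJ (46.8 and 52.6) and 112 in PWD/PHJ (105 and 120), against 86.3, 101, 84.8, 102 and 103 in C57BL/6J. Ms4a6d ran from 44.4 in NOD/ShiLtJ (40.6 and 48.6) to 228 in PWD/PHJ (217 and 240), against 133, 131, 88.7, 92.1 and 133 in C57BL/6J. It exceeded the median of all values in 11 groups. For neither gene did any gap in the order exceed 2 replicate SDs, so their strains formed no separate levels. PWD/PHJ was the highest strain for Ms4a4c, Ms4a4d and Ms4a6d, and also for Ms4a4a, the neighbour of Ms4a4c, which stood at 288 there against a strain median of 66.9 (adjusted p = 1.05e-13, limma F-test).

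Against C57BL/6J, limma called 62 of 190 pairs of gene and strain (the 5 genes other than Ms4a4b in the 38 strains with 2 arrays), of which 9 were higher and 53 lower in the strain. Over all probe sets 7.53 percent of such pairs were called, 2.31 percent higher and 5.21 percent lower. The 38 contrasts share the same 5 C57BL/6J arrays, and the split into higher and lower is relative to that strain. C57BL/6J itself lay above the strain median for each of the 5 genes. It had 897 against 754 for Ms4a4c, 1025.5 against 866 for Ms4a6c and 4532 against 4377 for Ms4a6b. For Ms4a4d it had 95.0 against 78.0, and for Ms4a6d 114 against 96.9. The count was 68 without replicate 2 of A/J and of PL/J, and 58 without the C57BR-titled and DBA2-titled arrays. Over all probe sets the median number of strains called was 1, and it was 3 among the brighter ones. Ms4a4c was called in 18 strains (6 higher, 12 lower), Ms4a6c in 17 (2 higher, 15 lower), Ms4a6d in 14 (1 higher, 13 lower), Ms4a4d in 9 (all lower) and Ms4a6b in 4 (all lower). Of the 62 differences, 26 were called under every alternative tried and 36 lost the call with an array of that strain left out, some of them under other alternatives too.

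Ms4a6c in MSM/Ms differed by -5.61 ± 0.13 (log2, SE; adjusted p = 7.56e-38) and in JF1/Ms by -1.57 (9.97e-15). The MSM/Ms value lies far below the median of all values, and the difference was -4.32 with an offset of 32 added before log2. In the 5 strains at the second level of Ms4a4b the Ms4a6c differences ran from -1.45 in KK.Cg-Ay/J to -1.22 in NON/ShiLtJ. These 5 are among the calls counted above. Their values are a description here, as the strains were picked by Ms4a4b and co-variation entered the choice of genes. Ms4a6c rose in FVB/NJ (1.90, adjusted p = 2.80e-17) and WSB/EiJ (0.46, 0.0113). Ms4a4c fell in FVB/NJ (-2.56 ± 0.18, adjusted p = 3.10e-16), WSB/EiJ (-1.67, 4.69e-10) and RIIIS/J (-1.41, 5.66e-08), as well as in 9 further strains. It rose in PWD/PHJ (2.10, adjusted p = 1.44e-13), JF1/Ms (1.20, 1.00e-06), MSM/Ms (0.85, 0.000364), BPL/1J (0.79, 0.00351), MRL/MpJ (0.63, 0.0131) and CAST/EiJ (0.60, 0.0126). Several of these calls were lost with 1 array left out. For Ms4a4c the adjusted p was 0.107 without BPL/1J replicate 1, 0.128 without MSM/Ms replicate 2, 0.243 without CAST/EiJ replicate 3 and up to 0.106 without an array of MRL/MpJ. For Ms4a6c in WSB/EiJ it reached 0.166 without an array of that strain.

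Smaller differences from C57BL/6J were seen in the other genes. Ms4a6b fell in PWD/PHJ (-0.62 ± 0.09, adjusted p = 4.07e-07), MSM/Ms (-0.41, 0.000623), NZB/BINJ (-0.37, 0.00542) and RIIIS/J (-0.29, 0.0296). The PWD/PHJ call held under every alternative, while the others reached an adjusted p of up to 0.0786 (MSM/Ms), 0.129 (NZB/BINJ) and 0.785 (RIIIS/J). This count of 4 strains became 7 with BTBR T+ tf/J replicate 1 left out. Ms4a4d fell farthest in FVB/NJ (-0.94 ± 0.13, adjusted p = 4.05e-07) and NOD/ShiLtJ (-0.82, 9.40e-06). Ms4a6d fell farthest in NOD/ShiLtJ (-1.36 ± 0.19, adjusted p = 4.31e-07), P/J (-1.20, 6.75e-06) and NOR/LtJ (-1.04, 0.000105), and was called higher in PWD/PHJ alone (1.00, 6.03e-05). The NOR/LtJ call was lost without its replicate 2 (adjusted p = 0.101). Whether probe mismatches in strains other than C57BL/6J lower these values was not tested, nor was binding of probes to more than 1 Ms4a gene, as no probe sequences were used here.

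The 4 strains of non-domesticus origin were set against the other 36 by limma on strain means, with the strain as the replicate. Strains counted as independent, with no allowance for kinship between them, so the adjusted p may be too small. The comparison called 3 of the 5 genes tested, where 8.73 percent of all probe sets were called. Ms4a4c was higher, at 2044 against 680 (1.59 ± 0.39, log2, SE; adjusted p = 0.00508), and 4 of 4 strains lay above the mean of the others. Ms4a6c was lower, at 244 against 876 (-1.84 ± 0.50, adjusted p = 0.0107), with CAST/EiJ, at 1001, above the mean of the others. Ms4a6b was lower, at 3591 against 4448 (-0.31 ± 0.09, adjusted p = 0.0145), with 0 of 4 strains above.

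Single strains carried part of this. Without MSM/Ms the Ms4a6c difference was -0.66 (adjusted p = 0.514) and that of Ms4a6b had an adjusted p of 0.0853. Without PWD/PHJ the adjusted p was 0.0667 for Ms4a4c and 0.183 for Ms4a6b. Ms4a4b, not tested here, was low in MSM/Ms (54.1) but stood at 2935 in CAST/EiJ, 3101 in PWD/PHJ and 3620 in JF1/Ms. Ms4a4d (0.16, adjusted p = 0.537) and Ms4a6d (0.30, adjusted p = 0.640) did not pass either.

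Co-variation of these neighbours over 40 strain means is a description, since it entered the choice of genes, and the points share the array platform and its normalization. Of 15 gene pairs, 2 reached an absolute Pearson r of 0.5: Ms4a4c with Ms4a4d (r = 0.71, Spearman rho = 0.62) and Ms4a4d with Ms4a6d (0.72, 0.73). Both pairs include Ms4a4d, which was below the median of all values in every strain, and Ms4a6d exceeded it in only 11 groups. Binding of probes to more than 1 Ms4a gene was not tested. Among 12490 probe sets ranked, Ms4a6d had the highest r with Ms4a4d. These pairs also varied together between arrays of the same strain (r = 0.47 and 0.45 over 82 arrays, each minus its strain mean). That was not particular to them: Ms4a4c with Ms4a6d had 0.47 and Ms4a4b with Ms4a6b 0.41. The lowest such value was -0.15, for Ms4a6c with Ms4a6d. In a strain with 2 arrays the deviations mirror each other. Without the 4 non-domesticus strains and WSB/EiJ (35 strain means) the 2 pairs above 0.5 had r = 0.70 and 0.67.

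Ms4a4b and Ms4a6c, adjacent in the gene order, had r = 0.50 (rho = 0.36). The value was 0.46 without WSB/EiJ and MSM/Ms, which lie far from all others on Ms4a4b, and 0.54 over the 35 strains. In rank this placed Ms4a6c at 97 among 12489 probe sets. Ms4a4c and Ms4a6c had r = -0.47, but rho = -0.12, and r = -0.38 without PWD/PHJ and SWR/J. Ms4a4b and Ms4a4c, the pair with the most similar upstream windows, had r = 0.10 (rho = 0.38), and Ms4a6b and Ms4a6c, which share the run of 48 bases, had r = 0.16 (rho = 0.20), turning to -0.31 over the 35 strains.

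In the RefSeq order of GRCm38.p6 the 6 genes follow Ms4a4a as Ms4a4c, Ms4a4b, Ms4a6c, Ms4a6b, Ms4a4d and Ms4a6d, with Gm8369 after Ms4a6c. The 3 with the widest spread between strains are the first 3. Of 39 measured genes among the 20 to each side of the Ms4a run and within it, 16 passed the F-test, where 47.6 percent of all probe sets did. Of these 39, 0 had an absolute r of 0.5 or more with Ms4a4b (range -0.37 to 0.27), and 0 of those past the F-test had one with Ms4a4c or Ms4a6c. Values that high are rare among all genes: r = 0.50 with Ms4a4b ranked 97 among 12489 probe sets. Counts of 0 among so few genes therefore say little about the neighbours. Ms4a1, the B cell gene, had an SD of strain means of 0.46 but a replicate SD of 0.56, did not pass the F-test (adjusted p = 0.0920), and was highest in PL/J (111 against a strain median of 23.4), the strain whose replicate 2 had the highest B cell list mean.

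**Figure D4:**
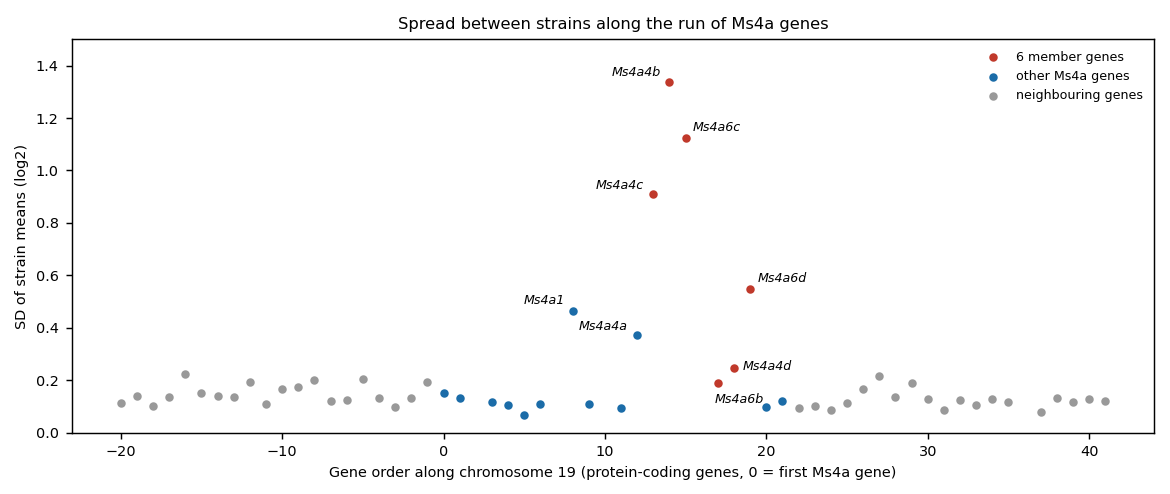
SD of strain means (log2) of each measured gene against its place in the gene order of chromosome 19, counted from the first Ms4a gene, with the 6 genes in red, other Ms4a genes in blue and neighbours in grey. Ms4a4c, Ms4a4b and Ms4a6c lie side by side at 0.91, 1.34 and 1.12, well above the genes beyond the run.

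Type I interferon response genes gave context for Ms4a4c. All 17 measured of 20 listed genes passed the F-test, where 47.6 percent of all probe sets and 72.6 percent of the brighter ones did. The median of their SDs was 0.56. Their mean was 7.45 (log2) in SWR/J, 7.47 in MSM/Ms, 7.56 in FVB/NJ and 7.78 in WSB/EiJ, the 4 lowest of 40 strains, and 9.04 in JF1/Ms, against 8.81 in C57BL/6J. Over 40 strain means the list mean had r = 0.47 with Ms4a4c, 0.51 with Ms4a4d and 0.47 with Ms4a6d. Over the 35 strains these values were 0.69, 0.63 and 0.57. MSM/Ms was low on the list and high for Ms4a4c. PWD/PHJ, highest for Ms4a4c, had a list mean of 8.38 and CAST/EiJ one of 8.15, both under the strain median of 8.51. Ms4a4b had r = 0.47 with the list over 40 strains but 0.15 over 35, and Ms4a6c had 0.01 and -0.38.

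**Figure D5:**
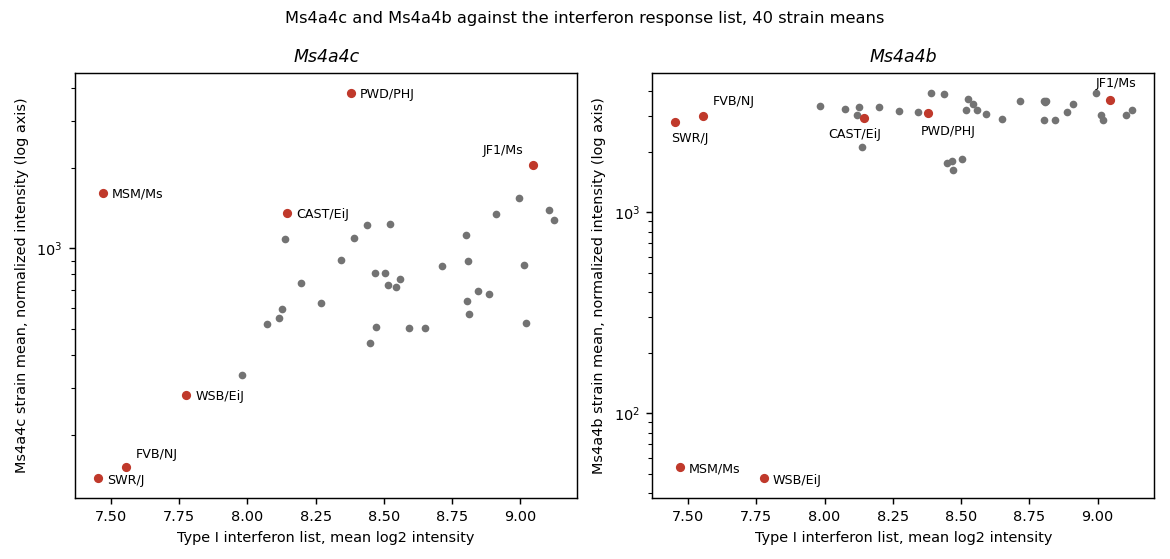
Strain means of Ms4a4c (left) and Ms4a4b (right) on a log axis against the mean log2 intensity of 17 interferon response genes, 1 point per strain group, with the 4 non-domesticus strains, WSB/EiJ, FVB/NJ and SWR/J in red. SWR/J, FVB/NJ and WSB/EiJ are low on the list and for Ms4a4c, while for Ms4a4b MSM/Ms and WSB/EiJ lie far below the other strains.

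Other lists varied as follows. Of 13 measured naive T cell genes (15 listed) 13 passed the F-test, with a median SD of 0.14, and their mean had r = 0.64 with Ms4a6b, or 0.38 over the 35 strains. Of 12 measured genes of regulatory T cells and the Gitr pathway (13 listed) 12 passed, with a median SD of 0.43. Over all probe sets 47.6 percent passed, with a median SD of 0.14, and 72.6 percent of the brighter ones passed. The mean of the 5 regulatory T cell markers had r = 0.08 with Ms4a4b and 0.07 with Ms4a6b. Myeloid marker means had r = -0.30 with Ms4a6c and -0.15 with Ms4a6d, the genes best known from myeloid cells, and 0.05 and -0.13 over the 35 strains. MSM/Ms had a myeloid list mean of 6.31 against a strain median of 5.83. The model with the myeloid list mean added also called Ms4a6c lower in MSM/Ms than in C57BL/6J. That fit cannot tell whether myeloid cells have a part in the difference, as strain medians of 10 of 10 markers were dim. Such a part was not tested.

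The genes whose strain pattern was most like each member, among those brighter than the median of all values in at least 1 strain, differed between members. For Ms4a4c they were Rtp4 (r = 0.75), Gbp9 (0.73), Dtx3l (0.70), Oas3 (0.64) and Mov10 (0.63). Rtp4, which stands in the interferon list above, had r = 0.80 over the 35 strains. For Ms4a4d they were Ms4a6d, Ms4a4c, Ifih1 (0.65), Rtp4 (0.65) and Eif2ak2 (0.61). Ifih1 and Eif2ak2 encode sensors of double-stranded RNA that interferon induces.

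For Ms4a4b the 10 probe sets with the highest r belonged to 9330175E14Rik (0.73), Izumo4 (0.68), Nlrc5 (5 probe sets, 0.65 to 0.67), Herpud1 (0.66), H2-Q2 (0.63) and Rpl12 (0.63). 9330175E14Rik, Nlrc5, a regulator of MHC class I genes, and Herpud1 are all annotated to chromosome 8. Over the 35 strains the 10 values lay between -0.07 and 0.17, so the likeness rests on the 5 strains left out. For Ms4a6c the nearest were St8sia6 (0.82, and 0.40 over the 35 strains), Brox (0.67), Hivep3 (0.66), Specc1l (0.65) and Zc3hav1 (0.64). Ms4a6b was nearest to Fbxl5 (0.75), Mtpap (0.72), Mettl21a, Tmc4 and Rufy2 (0.66, 0.66 and 0.65). Nearest to Ms4a6d were Sec61b (2 probe sets, 0.68 and 0.67), Them6 (0.67), Rpusd2 (0.66) and Vars (0.63).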

How the data were processed

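Affymetrix ST1.0 arrays of sorted cells gave a linear intensity for each probe set on each array, which the authors normalized with RMA in Affymetrix Power Tools, per the submitters' processing notes. Versions and genome build are not given in the sources used here. Values of 24922 probe sets and 82 arrays, as deposited, were taken to log2 with no filter and no further normalization. Of these probe sets, 21425 had 1 symbol in the platform annotation, 1399 had several and 2098 had none, and only the first kind was named.

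A linear model with 1 coefficient per strain group was fitted with limma 3.58.1 (lmFit, eBayes) in R 4.3.3, leaving 42 residual degrees of freedom to which the prior added 8.09. Strains were compared by the moderated F-test, by contrasts with C57BL/6J, and by limma on strain means for subspecies origin. Benjamini-Hochberg adjustment ran over every probe set of a comparison, and an adjusted p under 0.05 counted as a call. The number of arrays per group limits the precision. The procedure was tested on simulated data with known changes.

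Strains were named for a gene when 2-fold or more from the median of strain means, along with the lowest and the highest, and similar genes by the 5 largest r (10 for Ms4a4b). Other strains, namely those near the gaps, those of the second Ms4a4b level and those past a contrast, were chosen for naming once their values were known. The genes and lists were chosen with earlier results of these data known. Tests and counts of calls leave out Ms4a4b, while counts of correlations include it. Deviations of arrays with the same replicate number had a median correlation of 0.000389 over 630 pairs of strains. Single pairs ran from -0.63 to 0.57, and 199 exceeded 0.1. A median near 0 cannot show that no arrays of different strains were handled together, so replicate numbers were not used as pairs in the main fit.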

Additional observations from a re-analysis of the deposited data

How the results depend on the processing

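Ms4a4b is left out of the counts of tests and calls here, but not of the counts of gene-pair correlations. The other 5 genes passed the F-test between strains under every alternative except a filter on the dimmest 40 percent, which removes Ms4a4d and left 4, and all 5 passed with any single array left out (5 to 5). The 62 pairs of gene and strain called against C57BL/6J numbered 53 to 71 under the alternatives, among them 60 with quantile normalization, 56 with each array centred on its median and 71 with an offset of 32 before log2, and 58 to 69 with single arrays left out. The labels give no link between single arrays of different strains beyond a replicate number. With that number as a block, 53 pairs and all 5 genes were called. Taking the probe set with the smallest F-test p was no real alternative, as each gene has 1. The 62 differences gave 5692 values under alternatives, of which 142 lost the call and 0 reversed. The 3 genes called for subspecies origin became 1 without PWD/PHJ and 1 without MSM/Ms, and 2 with quantile normalization (Ms4a6b, adjusted p = 0.0891, limma); the fits without a strain have fewer samples. Gene pairs at an absolute r of 0.5 or more numbered 2 to 3. Of the correlations between the 15 gene pairs under alternatives, 83 stayed within the spread between replicate arrays and 52 moved by more, and 10 changed sign.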
